A study of Homo sapiens with 6 samples.

Results

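The ATF4 amino acid stress response was read here through 10 genes, chosen by name with earlier results of these data known. The 10 were the transcription factors ATF4, ATF3, DDIT3 and CEBPB, the enzymes ASNS, PHGDH and PSAT1, and the stress effectors TRIB3, CHAC1 and SESN2. They are 10 of 19775 genes named on the arrays and have 17 probe sets, 1 of them shared with other genes, and 16 probe sets were bright enough to be tested. The cells were HSC-3, an established line of human squamous carcinoma cells from the tongue. On 3 arrays they carried the label TAT-2, for overexpression of trypsin-2 (the protease encoded by PRSS2), and on 3 they carried the control vector, labelled as without trypsin-2 expression. All were grown for 48 h in medium with fetal calf serum, glutamine, pyruvate and hydrocortisone before the RNA was taken. The labels do not say whether either line is a clone or a pool, and nothing in them makes the replicates independent cultures. The p-values are therefore about the scatter of these 6 arrays, and that scatter may be technical only.

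In the integrated stress response, kinases that sense missing amino acids, misfolded protein in the endoplasmic reticulum, double-stranded RNA or lack of haem phosphorylate the initiation factor eIF2. General translation then slows while the messenger RNA of ATF4, through open reading frames upstream of its coding sequence, is translated more, so the amount of ATF4 message need not follow the amount of ATF4 protein. ATF4 pairs with C/EBP and related proteins on composite C/EBP-ATF response elements, called CARE, and turns on genes that make, import and charge amino acids, and, under lasting stress, genes that halt growth or lead to death.

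The signals of PRSS2 went against the labels on replicates 2 and 3. Its brightest probe set read 20.4, 13.8 and 14.6 on TAT-2 replicates 1, 2 and 3, against 19.6, 80.8 and 83.2 on the vector replicates. A dimmer one, 216470_x_at, read 17.9 to 19.9 on TAT-2 arrays and 22.6 to 54.5 on vector arrays. One shared with PRSS1, 205869_at, read 2.20 to 3.56 on TAT-2 arrays and 0.816 to 1.41 on vector arrays, too dim to be tested. Every direction below therefore rests on the labels. Both replicate 1 arrays stood apart, with a log2 ratio of 3' to 5' ACTB signal of 0.214 and 0.251 (TAT-2 and vector) against 0.462 to 0.588 on the other arrays. The keratin KRT14, a marker of squamous epithelium, read 4554 to 7662 on the 6 arrays. Of 6 fibroblast markers 2 reached the filter of 15.2 on a probe set's mean signal, COL1A1 (67.8 to 101 over the 6 arrays) and DCN (16.8 to 31.6). Of 7 leukocyte and endothelial markers 3 did, CD14 (9.15 to 79.5), LAPTM5 (123 to 211) and PECAM1 (28.6 to 37.5), while COL3A1 and PTPRC read at most 7.66 and 8.17.

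ASNS, TRIB3, SESN2 and PSAT1 fell in cells labelled TAT-2 on 1 probe set each when replicates were matched by number. The falls were modest, to 0.606, 0.697, 0.654 and 0.766 times the vector level. The messages of PHGDH, CHAC1, ATF4, ATF3, DDIT3 and CEBPB did not pass the test. The genes that fell are textbook targets of ATF4, but they are grouped here by outcome. ATF3, also a target, is among those that did not pass. All folds and log2 differences here are of signal + 16, which understates the change of dim probe sets, and were tested with limma, adjusted by Benjamini-Hochberg over 27307 probe sets. With the replicate number as a block, 4 of the 16 tested member probe sets were lower at an adjusted p under 0.05 and none was higher, against 2.66% of all tested probe sets lower and 2.55% higher (5.21% in all). At an unadjusted p under 0.05 there were 5 of 16, against 18.5% of all. In limma without the block 0 of 16 passed, where 0.0293% of all probe sets did (0.022% lower and 0.00732% higher), and 4 of the 16 had an unadjusted p under 0.05, where 7.86% of all did. With the block and replicate 1 left out of both groups, 2 of 16 were lower and none higher, where 1.42% of all were lower and 1.49% higher (2.91% in all), and 5 had an unadjusted p under 0.05, where 14.8% of all did. Of the 16, 13 had a log2 difference below 0 (52.3% of all tested), 9 were lower in all 3 replicate numbers (20.5% of all) and 2 higher in all 3 (18.6% of all). In 3 the groups did not overlap, all of them lower (7.35% of all lower and 6.73% higher). Their median was -0.15, against -0.01 over all tested probe sets. The genes were chosen with earlier results of these data known, so no count set against a share here tests them as a group. In such bulk RNA, fewer cells expressing a gene and less RNA per cell cannot be told apart. The blocked calls rest on limma's intensity trend of the variance: without it 0 of the 27307 were called in the blocked fit, where 4260 (15.6%), among them 6 of the members', had an unadjusted p under 0.05.

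**Figure D1:**
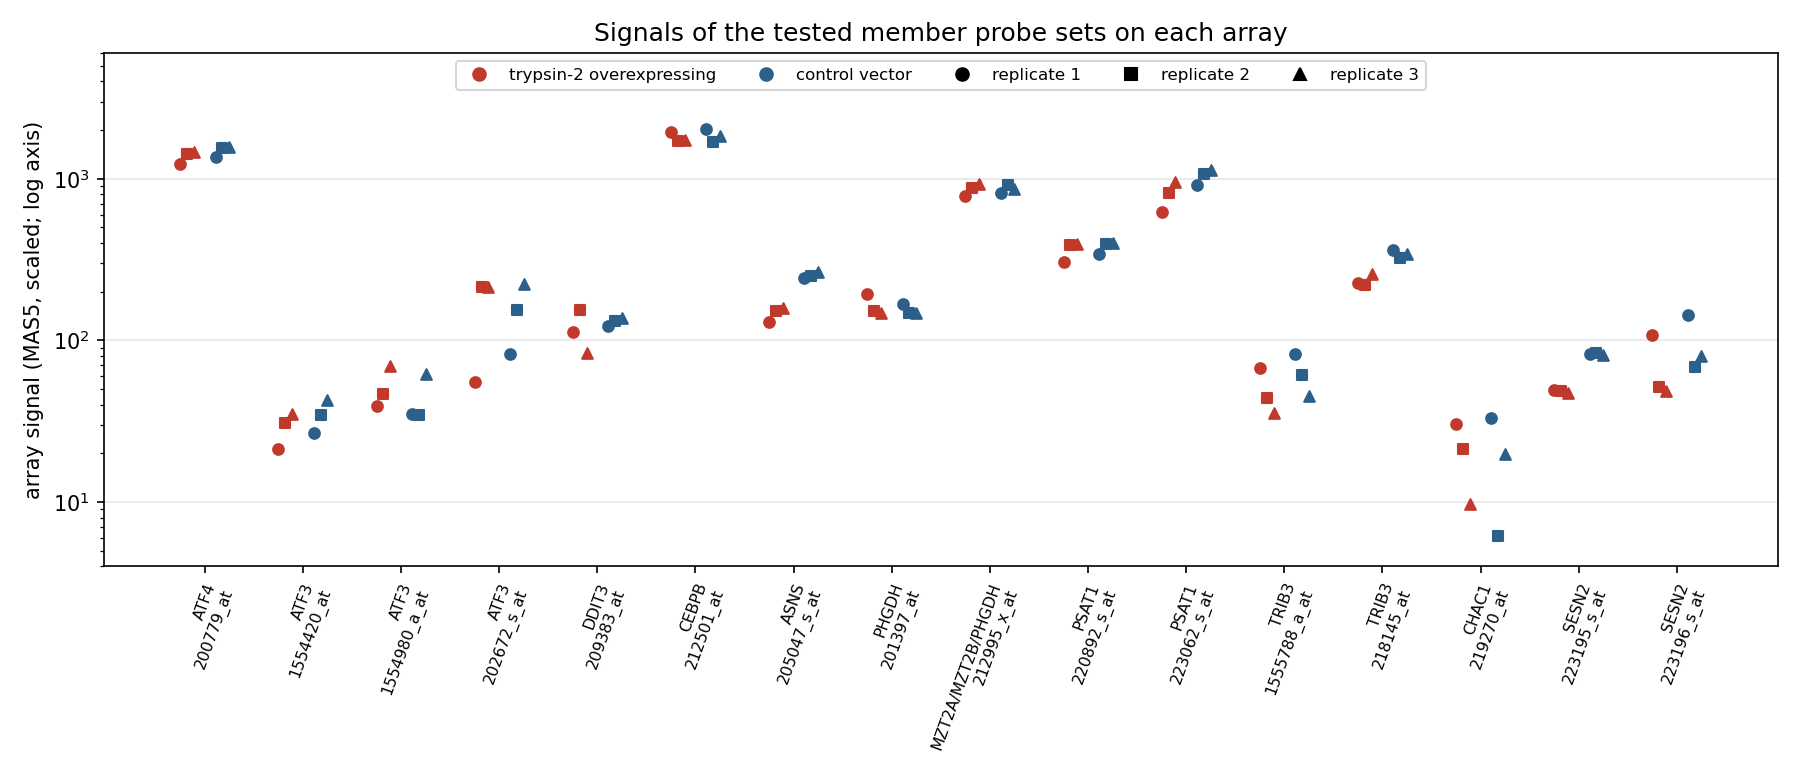
Signals of the 16 tested member probe sets on the 6 arrays, on a log axis, with TAT-2 arrays left (red) and control vector arrays right (blue), and a marker shape for each replicate number. The TAT-2 points of ASNS 205047_s_at, TRIB3 218145_at and SESN2 223195_s_at lie below all vector points, while those of the other probe sets overlap.

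ASNS, asparagine synthetase, which makes asparagine from aspartate and glutamine, showed the largest difference of the 10 genes. Its tested probe set, 205047_s_at, read 130.4, 151 and 158 on the TAT-2 arrays of replicates 1, 2 and 3, against 244, 248 and 263 on the vector arrays. The highest TAT-2 array lay well under the lowest vector array, so the groups did not overlap. The means were 147 ± 14.6 in TAT-2 cells and 252 ± 10.3 in vector cells (SD, n = 3 each). The log2 difference was -0.72 ± 0.12 (SE) with a limma adjusted p of 0.102 without the block, and ± 0.09 with a limma adjusted p of 0.00104 with it. By number it was -0.83, -0.66 and -0.68. The blocked call held without each replicate number in turn and without a filter (limma adjusted p = 0.000982 to 0.0149), and was lost only without the intensity trend (limma adjusted p = 0.108). A further ASNS probe set, 241082_at, read 0.288 to 2.65 on TAT-2 arrays and 1.37 to 1.80 on vector arrays, at the floor of the arrays, and was not tested.

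ASNS lies on chromosome 7 (chr7:97851677-97928441, GRCh38.p14), and the genes around it did not share its difference. Of its 20 nearest tested genes, 10 on each side, 7 lay below 0 with a median of 0.05, and the lowest was at -0.16. For PSAT1, on chromosome 9 (chr9:78297125-78330093), 8 of 20 neighbours lay below 0, with a median of 0.02 and the lowest at -0.25.

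The promoters of the 4 genes that fell are shown because each had a probe set called lower with the block. Those of CHAC1 and ATF3 are shown because they hold the same motif as ASNS and did not pass the test. All are RefSeq windows of build GRCh38.p14, from 250 bases before to 50 bases after a gene's annotated start, read on the gene's strand. All 10 genes were found in that table, some with several starts. Capitals mark the core of the CARE element, searched as TGATGNAA on both strands, which 3.62% of all 35116 windows hold. The windows are ASNS chr7:97872359-97872658 (minus strand), TRIB3 chr20:381045-381344, SESN2 chr1:28259268-28259567, PSAT1 chr9:78296875-78297174, CHAC1 chr15:40953221-40953520 and ATF3 chr1:212565157-212565456 (plus strand).
ASNS: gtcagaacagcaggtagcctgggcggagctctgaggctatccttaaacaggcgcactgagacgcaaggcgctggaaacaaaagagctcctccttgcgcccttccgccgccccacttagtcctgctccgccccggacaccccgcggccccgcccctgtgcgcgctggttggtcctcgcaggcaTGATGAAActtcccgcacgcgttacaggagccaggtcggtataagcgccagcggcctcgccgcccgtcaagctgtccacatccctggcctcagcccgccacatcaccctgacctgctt
TRIB3: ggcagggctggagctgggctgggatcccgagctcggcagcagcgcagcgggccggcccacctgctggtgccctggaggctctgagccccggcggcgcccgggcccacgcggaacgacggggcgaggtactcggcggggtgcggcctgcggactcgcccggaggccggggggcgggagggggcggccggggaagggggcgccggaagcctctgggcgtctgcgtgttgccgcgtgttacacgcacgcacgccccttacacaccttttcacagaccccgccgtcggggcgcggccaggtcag
SESN2: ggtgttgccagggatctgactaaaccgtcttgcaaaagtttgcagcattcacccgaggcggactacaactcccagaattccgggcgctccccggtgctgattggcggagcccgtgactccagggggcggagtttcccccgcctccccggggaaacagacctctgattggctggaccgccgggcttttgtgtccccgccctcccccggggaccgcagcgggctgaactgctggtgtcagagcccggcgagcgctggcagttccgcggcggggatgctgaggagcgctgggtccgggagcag
PSAT1: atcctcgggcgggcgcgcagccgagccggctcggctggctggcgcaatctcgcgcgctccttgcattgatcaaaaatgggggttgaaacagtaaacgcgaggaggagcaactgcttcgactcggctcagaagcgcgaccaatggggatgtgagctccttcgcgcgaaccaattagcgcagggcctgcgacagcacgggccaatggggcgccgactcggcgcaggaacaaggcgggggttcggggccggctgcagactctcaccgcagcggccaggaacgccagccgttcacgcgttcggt
CHAC1: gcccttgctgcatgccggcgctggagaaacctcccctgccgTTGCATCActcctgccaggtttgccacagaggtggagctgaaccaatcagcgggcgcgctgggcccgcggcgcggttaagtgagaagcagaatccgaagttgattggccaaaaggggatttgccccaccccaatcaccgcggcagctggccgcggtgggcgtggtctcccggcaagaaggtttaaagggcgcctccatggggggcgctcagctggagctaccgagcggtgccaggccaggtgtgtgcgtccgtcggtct
ATF3: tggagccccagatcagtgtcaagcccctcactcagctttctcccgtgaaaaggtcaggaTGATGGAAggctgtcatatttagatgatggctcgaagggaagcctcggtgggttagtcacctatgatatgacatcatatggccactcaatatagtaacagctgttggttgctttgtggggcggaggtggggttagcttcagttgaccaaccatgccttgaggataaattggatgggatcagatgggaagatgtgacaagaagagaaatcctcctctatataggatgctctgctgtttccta
In ASNS the core reads TGATGAAA and begins 68 bases before the start. CHAC1 holds it on the opposite strand, as TTGCATCA, with its farther end 209 bases before the start, and ATF3 holds TGATGGAA 191 bases before. Of the 10 genes these 3 had a match in their windows, against 4.46% of 27305 genes, and 1 of the 3, ASNS, was among the genes that fell. The windows of TRIB3, SESN2 and PSAT1 hold no such letters, nor do those at the other listed start of ASNS and of ATF3. The outer ends of the spans of ASNS (97928441, minus strand) and TRIB3 (380760) lie outside all windows listed for them. Promoter sequence there was not searched. The cyclic AMP response element TGACGTCA, in 1.85% of all windows, was in no window of the 10 genes.

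PSAT1, phosphoserine aminotransferase, and PHGDH, phosphoglycerate dehydrogenase, catalyse consecutive steps of serine synthesis from a glycolytic intermediate. PSAT1 probe set 223062_s_at read 625, 820.1 and 961 on the TAT-2 arrays, against 909, 1075 and 1140.2 on the vector arrays. Each TAT-2 array was lower than the vector array of its number, but the groups overlapped. Its log2 difference was -0.39, with an SE of 0.16 and a limma adjusted p of 0.609 without the block, and an SE of 0.07 and a limma adjusted p of 0.0108 with it. The blocked call was lost without replicate 1 or 2 of both groups (limma adjusted p = 0.0714 and 0.0635) and without a filter (0.0683). Leaving out TAT-2 replicate 1 alone, in the fit without the block, moved the difference to -0.22. The other PSAT1 probe set, 220892_s_at, read 305, 387 and 395 on the TAT-2 arrays and 342, 393 and 399 on the vector arrays. Its log2 difference of -0.06 (95% interval -0.23 to 0.10 with the block) did not pass. The interval of 223062_s_at was -0.54 to -0.23, and the difference between these 2 probe sets was not tested.

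PHGDH did not pass on either probe set. Its own probe set, 201397_at, read 193, 152 and 148 on the TAT-2 arrays and 168, 147 and 148 on the vector arrays. Both replicate 1 arrays were the highest of their group, and replicates 2 and 3 lay within a few units of each other. The log2 difference was 0.07 with a blocked 95% interval of -0.13 to 0.28, which leaves out a fall of the size of PSAT1 223062_s_at. A probe set annotated to PHGDH together with MZT2A and MZT2B, 212995_x_at, averaged 865 ± 73.1 in TAT-2 cells and 865 ± 47.8 in vector cells (SD, n = 3 each), with a log2 difference of -0.00.

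TRIB3, a pseudokinase that binds ATF4 and DDIT3 and damps their activity, read 226, 219 and 259 on the TAT-2 arrays and 361, 325 and 344 on the vector arrays with probe set 218145_at. The groups did not overlap. The means were 235 ± 21.2 in TAT-2 cells and 343 ± 17.8 in vector cells (SD, n = 3 each). The log2 difference was -0.52, with an SE of 0.11 and a limma adjusted p of 0.193 without the block, and an SE of 0.08 and a limma adjusted p of 0.00465 with it. Without each replicate number in turn and without a filter, the blocked limma adjusted p was 0.00237 to 0.0366. The dimmer probe set 1555788_a_at read 67.0, 44.0 and 35.3 on the TAT-2 arrays and 81.9, 61.2 and 45.2 on the vector arrays, lower in all 3 numbers. Its log2 difference of -0.29 did not pass (limma adjusted p = 0.2997 with the block).

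SESN2, sestrin 2, which binds leucine and restrains the growth kinase complex mTORC1, had tight groups on one of its probe sets. With 223195_s_at it read 49.1, 48.9 and 47.3 on the TAT-2 arrays, against 82.6, 83.4 and 81.7 on the vector arrays. The groups did not overlap, and the 3 arrays of each lay within 2 units. The log2 difference was -0.61 ± 0.13 (SE in either fit), with a limma adjusted p of 0.183 without the block and 0.0191 with it. The other probe set, 223196_s_at, read 108, 51.3 and 48.7 on the TAT-2 arrays and 143, 68.4 and 80.0 on the vector arrays. Both replicate 1 arrays were high there, a shift that 223195_s_at did not show. Its log2 difference of -0.42 had an SE of 0.31 without the block and 0.12 with it, and did not pass (limma adjusted p = 0.0810 with the block). Without the block, that value was -0.72 when TAT-2 replicate 1 was left out, -0.25 without TAT-2 replicate 3 and -0.14 without vector replicate 1. For 223195_s_at the blocked call was lost without replicate 1 or 2 of both groups (limma adjusted p = 0.0784 and 0.0997) and without a filter (0.0774).

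**Figure D2:**
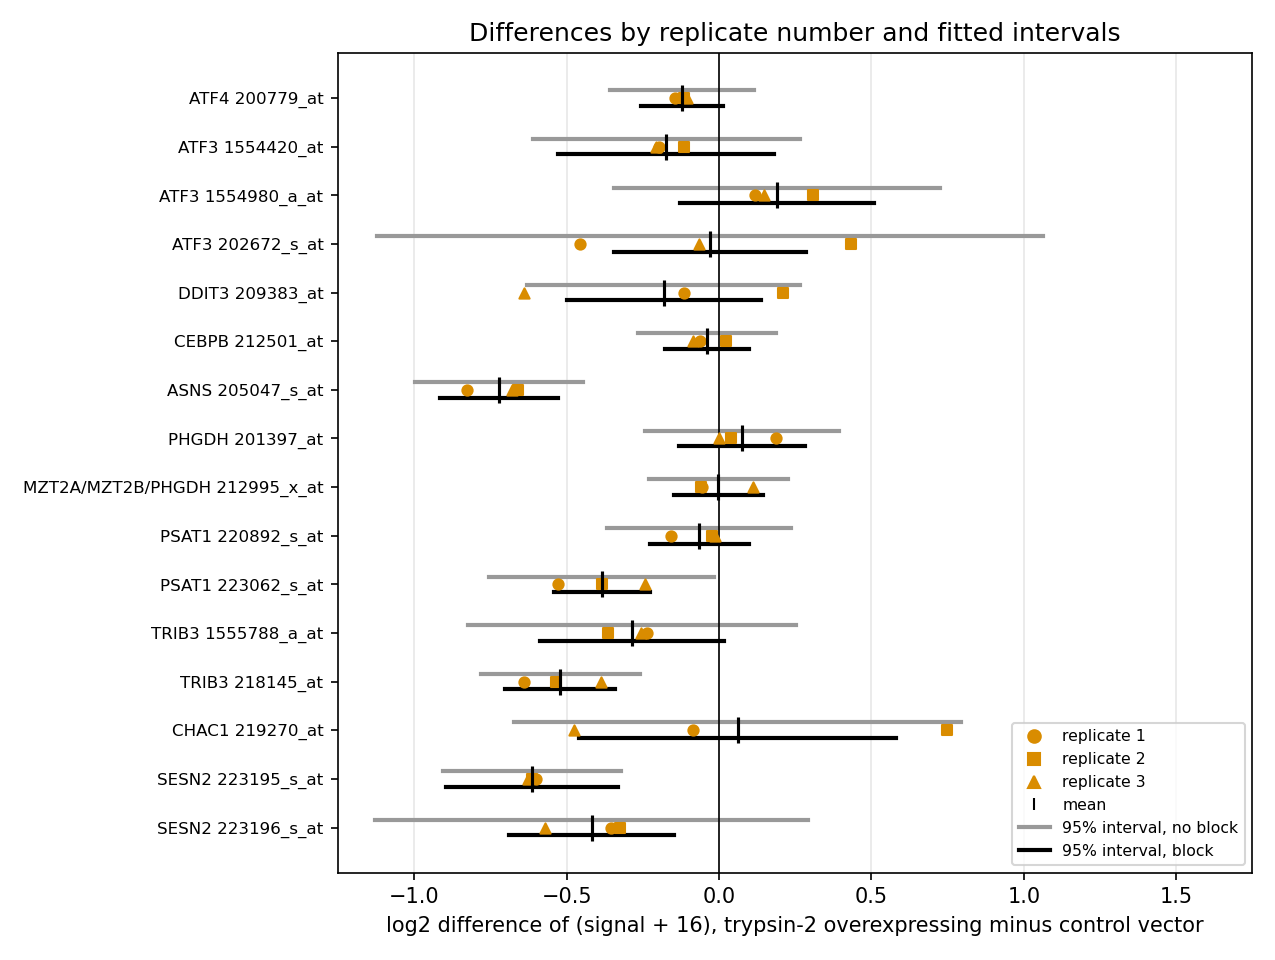
Log2 difference of signal + 16, TAT-2 minus vector, for each tested member probe set, within each replicate number (orange markers), with the mean (black tick) and limma's 95% intervals without the block (grey) and with it (black). The 3 numbers of SESN2 223195_s_at lie almost on one another near -0.61, and those of ATF3 202672_s_at, DDIT3 and CHAC1 lie on both sides of 0.

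Both TRIB3 and SESN2 lie among genes that were themselves lower. TRIB3 is close to an end of chromosome 20 (chr20:380760-397559), and of its 14 nearest tested genes 13 lay below 0, with a median of -0.30, and 5 fell with the block. Of those 14, 1 was lower than TRIB3. SESN2 is on chromosome 1 (chr1:28259518-28282491), and of its 20 nearest tested genes 16 lay below 0, with a median of -0.18, and 4 fell with the block. CEBPB, on the other arm of chromosome 20, had 19 of 20 neighbours below 0 with a median of -0.19, and was itself higher than 19 of them, at -0.04. The part of these neighbourhoods in the differences of TRIB3 and SESN2 was not tested.

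**Figure D3:**
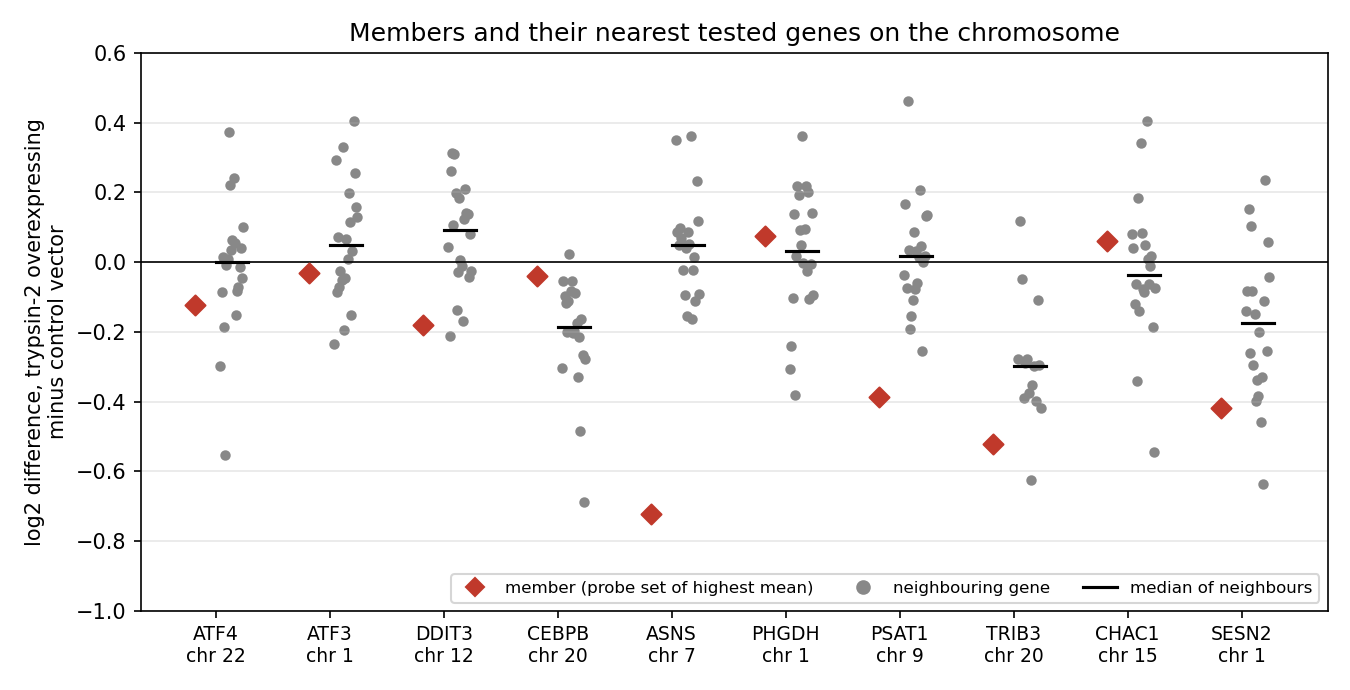
Log2 difference, TAT-2 minus vector, of each member (red diamond, probe set of highest mean, which for SESN2 is 223196_s_at) and of up to 20 nearest tested genes on its chromosome (grey points, black line at their median). ASNS and PSAT1 lie below every neighbour, while the neighbours of TRIB3, SESN2 and CEBPB are mostly below 0.

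CHAC1, an enzyme that cleaves glutathione and is induced late in the response, was dim and scattered. It read 30.2, 21.2 and 9.75 on the TAT-2 arrays and 33.0, 6.15 and 19.8 on the vector arrays. The order of the groups changed from number to number, at log2 differences of -0.09, 0.75 and -0.48. The mean difference of 0.06 had a blocked 95% interval of -0.46 to 0.58, wide enough to hold a fall like that of PSAT1, so that a change of that size was not detectable here.

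ATF4 itself was bright and even. It read 1226, 1433 and 1459 on the TAT-2 arrays and 1356, 1553 and 1571 on the vector arrays. Each TAT-2 array was lower than the vector array of its number, and the groups overlapped. The log2 difference was -0.12 with an SE of 0.10 without the block and 0.06 with it, and did not pass (limma adjusted p = 0.332 with the block). Without the block it was -0.04 when TAT-2 replicate 1 was left out and -0.19 when vector replicate 1 was. Its blocked 95% interval, -0.26 to 0.01, lies above that of ASNS, -0.91 to -0.53. The gene is on chromosome 22 (chr22:39520559-39522686), where 10 of 20 neighbours lay below 0, with a median of 0.00.

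DDIT3, also called CHOP, which promotes cell death under lasting stress, read 112, 154 and 83.0 on the TAT-2 arrays and 123, 131 and 138 on the vector arrays. The TAT-2 arrays were spread to both sides of the vector arrays. The log2 difference was -0.18, with a blocked 95% interval of -0.50 to 0.14 and a limma adjusted p of 0.579. CEBPB, a C/EBP protein that pairs with ATF4, averaged 1795 ± 132 in TAT-2 cells and 1849 ± 175 in vector cells (SD, n = 3 each). Its log2 difference of -0.04 had a blocked 95% interval of -0.18 to 0.10.

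ATF3, an immediate stress factor that is itself a target of ATF4, was read by 3 probe sets that did not share a direction. The brightest, 202672_s_at, read 55.5, 215 and 213 on the TAT-2 arrays and 82.2, 155 and 223 on the vector arrays. Both replicate 1 arrays were far below the others, and the log2 difference was -0.46, 0.43 and -0.06 by number. Its mean of -0.03 had an SE of 0.48 without the block and 0.14 with it. The probe set 1554980_a_at was at 0.19, higher in all 3 numbers, and 1554420_at was at -0.17, lower in all 3. Neither passed (limma adjusted p = 0.561 and 0.648 with the block).

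The wider ATF4 programme was read through lists of genes, each gene on its brightest probe set. The counts of each list are to be read beside the shares of all tested probe sets. With the block 2.66% of these were called lower and 2.55% higher, and 52.3% lay below 0. Among 12 tested amino acid transporters, SLC7A11, which imports cystine in exchange for glutamate, fell with the block and none rose. It read 311, 261 and 299 on the TAT-2 arrays and 851, 478 and 799.9 on the vector arrays, with no overlap, at a log2 difference of -1.21 ± 0.10 (SE with the block) and a limma adjusted p of 0.000162. The other 11 did not pass, and the list's median was -0.00, against -0.01 over all tested probe sets. SLC7A11 is also a target of the oxidative stress factor NRF2.

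Of 11 tested enzymes of amino acid synthesis and one-carbon metabolism other than the members, none fell with the block and 1 rose, GLUL, glutamine synthetase. It read 906, 918 and 925 on the TAT-2 arrays and 703, 734 and 711 on the vector arrays, with no overlap. Its log2 difference was 0.35 ± 0.06 (SE with the block), with a limma adjusted p of 0.00975. The product of GLUL, glutamine, is a substrate of ASNS, whose message differed in the opposite direction. The list's median was -0.03.

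Aminoacyl-tRNA synthetases charge transfer RNA with amino acids. Of 11 tested synthetases linked to ATF4, 10 lay below 0, with a median of -0.09, and 1 fell with the block. Of all tested probe sets 52.3% lay below 0 and 2.66% fell with the block. By replicate number the median of these synthetases was -0.12, -0.15 and 0.02, so it lay above 0 in replicate 3. The gene that fell was AARS1, alanyl-tRNA synthetase, at 372 ± 7.35 in TAT-2 cells and 475 ± 47.3 in vector cells (SD, n = 3 each), a log2 difference of -0.33 ± 0.08 (SE with the block) with a limma adjusted p of 0.0275. Of 6 tested other cytosolic synthetases, 3 lay below 0 and 3 above, with a median of -0.03, and none passed in limma. There 2 had an unadjusted p under 0.05 with the block and 0 without it, against 18.5% and 7.86% of all tested probe sets. HARS1 was at 0.17 and FARSA at -0.20. The difference between both lists of synthetases was not tested.

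Among 18 tested stress effectors and feedback genes, 2 fell with the block and none rose, with a list median of -0.07, or -0.26, 0.03 and -0.04 by replicate number. BCAT1, which transfers the amino group of branched-chain amino acids, read 181, 206 and 244 on the TAT-2 arrays and 282, 388 and 409.8 on the vector arrays. The groups did not overlap, its 3 other tested probe sets had the same sign, and the log2 difference was -0.72 ± 0.08 (SE with the block, limma adjusted p = 0.000787). VEGFA, the endothelial growth factor, was at -0.57 ± 0.07 (limma adjusted p = 0.00144 with the block), with groups that overlapped and 3 other probe sets of the same sign. Of the neighbours of BCAT1 and VEGFA, 9 of 20 and 7 of 20 lay below 0.

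Upstream of ATF4 stand the sensors and brakes of the response. Of 20 tested genes for eIF2 kinases, eIF2 and its exchange factor and phosphatase, none passed in either fit, with a median of -0.01. In limma 3 had an unadjusted p under 0.05 with the block and 0 without it, against 18.5% and 7.86% of all tested probe sets. The 3 were GCN1, the activator of the kinase GCN2, at -0.23, EIF2AK4, which encodes GCN2, at -0.20, and DNAJC3, an inhibitor of eIF2 kinases, at -0.27. Each was lower in all 3 numbers, as were 20.5% of all tested probe sets, and the 3 are named for their small p. The groups of DNAJC3 overlapped while those of GCN1 and EIF2AK4 did not. In the list of 20, 2 were lower and 1 higher without overlap, where 7.35% and 6.73% of all tested probe sets were. The blocked limma adjusted p of GCN1, EIF2AK4 and DNAJC3 were 0.107, 0.189 and 0.108. Of 5 tested paralogs of members, TRIB1 fell with the block (-0.35, limma adjusted p = 0.0320) and none rose. Of 12 tested autophagy genes none passed in either fit. In limma 1 of them had an unadjusted p under 0.05 with the block and 0 without it, against the same 18.5% and 7.86%. ATG12 was at 0.19 and ATG16L1 at -0.24.

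Among 20 tested bZIP factors, the family of ATF4 and its partners, FOS rose and FOSL1 fell with the block, and 13 lay above 0 with a median of 0.06. FOS was at 0.74 and read 82.2, 646 and 514 on the TAT-2 arrays and 56.5, 280.3 and 331 on the vector arrays, so that replicate 1 was low in both groups. FOSL1 was at -0.66 and read 1980, 896 and 996 on the TAT-2 arrays and 3103, 1542 and 1478 on the vector arrays, with replicate 1 high in both. Without the block the SEs of these differences were 0.78 and 0.35.

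The branch of the stress response that runs through ATF6 and XBP1, and raises chaperones of the endoplasmic reticulum, had most of its genes above 0. Of its 17 tested genes 16 lay above 0, with a median of 0.13 (0.07, 0.16 and 0.24 by replicate number), and 4 rose and none fell with the block. Of all tested probe sets 52.3% lay below 0, and with the block 2.55% rose and 2.66% fell. SDF2L1, a chaperone cofactor, read 430, 689 and 676 on the TAT-2 arrays and 255, 356 and 371 on the vector arrays. The groups did not overlap, and the log2 difference was 0.82 ± 0.07 (SE with the block, limma adjusted p = 0.000204). XBP1, the transcription factor spliced by the sensor IRE1, was at 0.44, CRELD2, a chaperone of the endoplasmic reticulum, at 0.39 and MANF, a secreted stress protein, at 0.30 (limma adjusted p = 0.00551, 0.0101 and 0.0463 with the block). SDF2L1 and XBP1 lie on chromosome 22 among higher genes: of their 20 nearest tested genes each, 4 and 9 rose with the block, with medians of 0.25 and 0.32. The neighbours of CRELD2, on the same chromosome, and of MANF, on chromosome 3, had medians of -0.01 and -0.00. The 142 listed genes tested gave 13 calls in the blocked limma fit, where 5.21% of all tested probe sets were called. In limma without the block the listed genes gave 0 calls. There 9 of them had an unadjusted p under 0.05, as did 7.86% of all tested probe sets. Without a filter the blocked calls of AARS1, FOS, CRELD2, MANF, TRIB1 and CDH1 were lost, and with replicate 1 left out those of TRIB1, CRELD2 and CDH1 were (limma adjusted p = 0.0509 to 0.167). With replicate 1 left out, ATF6, KRT5 and CD14 were called higher in addition (blocked limma adjusted p = 0.0480, 0.00869 and 0.0347).

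Lists of cell type markers were read beside these. Of 5 tested squamous epithelial markers, CDH1, the epithelial cadherin, fell with the block, at 854 ± 176 in TAT-2 cells and 1145 ± 102 in vector cells (SD, n = 3 each), and the list's summed signal was 18800 to 21880 on TAT-2 arrays and 16370 to 23620 on vector arrays. Of 2 tested fibroblast and 3 tested leukocyte or endothelial markers none passed in either fit, COL1A1 being at 0.22, DCN at 0.20, CD14 at 0.65 and PECAM1 at 0.12. In limma 1 of the 5, CD14, had an unadjusted p under 0.05 with the block and 0 without it. The shares of all tested probe sets were 18.5% and 7.86%. CD14, a monocyte marker that read 14.01, 79.5 and 54.4 on the TAT-2 arrays and 9.15, 38.3 and 22.3 on the vector arrays, passed in the blocked fit without replicate 1. The summed signals were 130.5 to 137 on TAT-2 arrays and 112 to 136 on vector arrays for fibroblast markers, and 238 to 294 on TAT-2 arrays and 190.1 to 292 on vector arrays for the others. Their part in the members' differences was not tested.

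The endoplasmic reticulum stress element, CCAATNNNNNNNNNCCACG on either strand, is in 0.0769% of all 35116 promoter windows, and in none of those of the 10 members. Only exact matches were counted. The windows of DDIT3 hold ccaatgccggcgtgccact, which differs from these letters in the last one. Near matches were not searched for in any window. Of the 4 genes of the ATF6 and XBP1 branch that rose, XBP1 and CRELD2 hold the exact element, against 0.0916% of 27305 genes. The genes of that list that did not pass were not looked up for it, so the matches cannot be linked to the rise. XBP1 holds it at 1 of its 2 annotated starts. The windows with it (chr22:28800520-28800819, minus strand, and chr22:49918384-49918683, plus strand, GRCh38.p14) are shown with it in capitals beside those of the members.
XBP1: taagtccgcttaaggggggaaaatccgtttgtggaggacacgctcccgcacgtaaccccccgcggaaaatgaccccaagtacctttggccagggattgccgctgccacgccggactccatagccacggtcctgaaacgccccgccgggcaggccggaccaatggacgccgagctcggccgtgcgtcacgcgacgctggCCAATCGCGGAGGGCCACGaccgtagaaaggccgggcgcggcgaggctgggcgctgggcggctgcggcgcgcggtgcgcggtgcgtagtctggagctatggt
CRELD2: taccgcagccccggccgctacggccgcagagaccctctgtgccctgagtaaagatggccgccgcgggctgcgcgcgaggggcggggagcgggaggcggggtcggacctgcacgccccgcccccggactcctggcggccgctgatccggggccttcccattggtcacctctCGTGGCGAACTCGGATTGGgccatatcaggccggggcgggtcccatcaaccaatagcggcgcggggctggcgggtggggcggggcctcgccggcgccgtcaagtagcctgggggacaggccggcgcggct
In XBP1 the element ends 34 bases before the start, and in CRELD2, on the opposite strand, 62 bases before. A match to these letters is a description of the window and was not tested as a site.

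**Figure D4:**
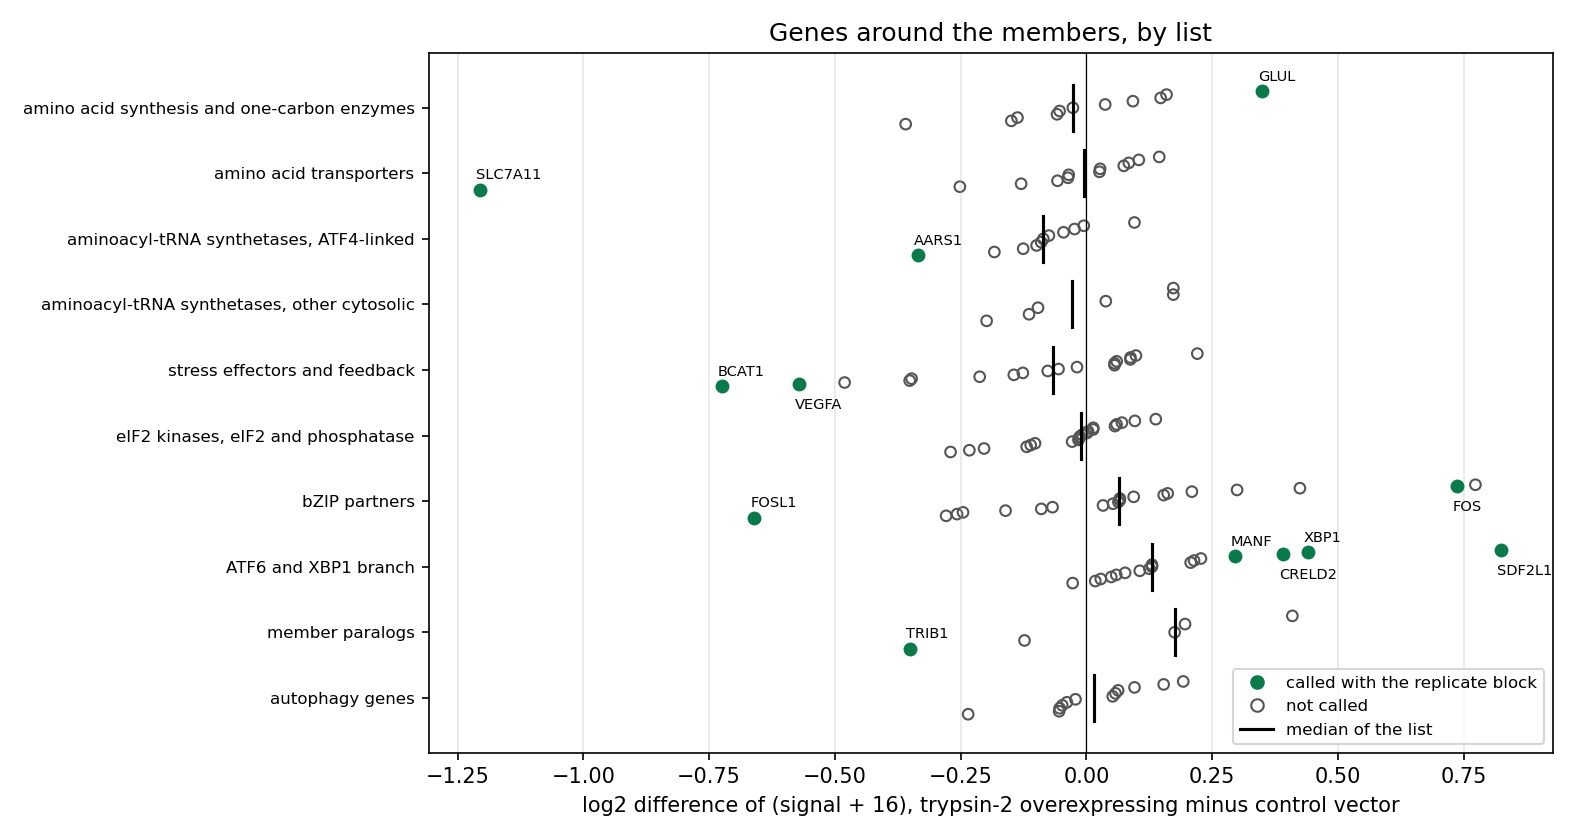
Log2 difference of signal + 16, TAT-2 minus vector, of each tested gene of 10 lists around the members, with filled points for genes called with the replicate block and a black line at each list's median. Amino acid genes that passed lie to the left apart from GLUL, and those of the ATF6 and XBP1 branch lie to the right.

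Across the 6 arrays the genes most like ASNS, by the root mean square of the gap between log2 profiles after each gene's own mean was taken off, were COL5A1, a fibrillar collagen (0.0558), EPB41L4B (0.0667), UTRN, utrophin (0.0725), GATA6 (0.0802) and BAG2, a chaperone regulator (0.0816), among 12140 tested genes. None of these is in the lists above. Those most like TRIB3 were BDH1 (0.0357), PRELID3B (0.0482), NAA20 (0.0491), FAM217B (0.0497) and LINC01128 (0.0542). Of these 5, PRELID3B, NAA20 and FAM217B lie, as TRIB3 does, on chromosome 20, which holds 2.87% of the genes compared. Those most like ATF4 were ELF1 (0.0171), POLE2 (0.0176), MFAP1 (0.0199), RPP38 (0.0228) and SEC63 (0.0253), whose log2 differences of -0.12 to -0.09 did not pass.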

How the data were processed

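RNA of 6 samples was labelled from 2 µg of total RNA and read on 6 Affymetrix arrays, 3 per group, which limits the precision. The deposited values are intensities, 1 linear MAS5 signal per probe set and array, per the submitters' processing notes. No version of MAS5 is given in the sources used here. They ran from 0.0142 to 12091, and the authors' scaling was kept. Groups and replicate numbers were taken from the titles.

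Of 54675 probe sets, 62 controls were left out. Genes were named from the platform annotation, updated by gene identifier to the reference table of GRCh38.p14. Of the probe sets, 41097 had 1 symbol, 1801 several and 11777 none. Those with several name no gene, except the one shared by PHGDH and, in the check of the labels, the one shared by PRSS2 and PRSS1. Signals were transformed as log2(signal + 16) and tested where the mean over arrays was at or above the median over non-control probe sets (4.96, a signal of 15.2), leaving 27307. limma 3.58.1 in R 4.3.3 (lmFit, eBayes with an intensity trend) compared overexpressing with vector, two-sided, with Benjamini-Hochberg adjustment at 0.05 and no covariate. SEs and 95% intervals are limma's moderated ones.

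After subtraction of group means, both arrays numbered 1 correlated across probe sets with r = 0.64, those numbered 2 with 0.39 and those numbered 3 with 0.25. Each exceeded 0.1, so the numbers served as a block beside the fit without it. What a number stands for is not in the labels. Arrays of different numbers, TAT-2 replicate 2 and vector replicate 3, reached 0.32, above the 0.25 of those numbered 3. Passing 0.1 therefore does not show that the arrays numbered 2 and 3 are matched. The fit was checked on simulated data.

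The members and lists (171 genes in 13 lists, of which 160 had a probe set of their own and 142 were tested) were chosen with earlier results of these data known. Named genes were all members, and from each list up to 4 called genes by size, or, with none called, the 2 of smallest p. For ASNS, TRIB3 and ATF4 the 5 genes of nearest profile were named. KRT14, COL3A1, LAPTM5, PTPRC and PRSS2 were named to check the labels, DNAJC3, ATF6 and KRT5 were named after their values were seen, and the neighbouring genes were counted after the differences were seen. Alternatives were other pseudocounts, filters, normalizations, variance models and covariates, and arrays left out.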

Additional observations from a re-analysis of the deposited data

How the results depend on the processing

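The number of arrays and the use of the replicate block decide the counts. For member probe sets called, limma without the block gave 0 under every alternative run without it, leaving out any array included, with 3 or 4 at an unadjusted p under 0.05. With the replicate block 4 were called, as with quantile normalization added to the block and with replicate 1 as a batch factor in its place. The block with no filter gave 2 (ASNS and TRIB3), and leaving out a replicate number of both groups with the block gave 2, 2 and 4. With the block and no intensity trend 0 were called, with 6 at an unadjusted p under 0.05. For all probe sets called, the fit without the block gave 8, and 13 with quantile normalization, 24 with array medians centred, 5 without the trend, 1424 with the replicate block, 415 with the block and no filter, 1588 with the block and quantile normalization, 1232 with the batch factor, 0 with the block and no trend, 0 to 29 without single arrays, and 795, 659 and 1393 with the block and replicate number 1, 2 or 3 left out. For list genes called, 0 became 13 with the replicate block, 7 with the block and no filter, 15 with the block and quantile normalization, 12 with the batch factor and 13, 8 and 13 with the block and number 1, 2 or 3 left out. Of 209 alternative values of the members' log2 differences, on each gene's probe set of highest mean, 179 kept their direction and side of the threshold, 18 passed it in the same direction and 12 changed sign, none of them called. The cause was not tested. That of ATF3 was 0.0011 with a pseudocount of 64 and 0.18 with the block and replicate 1 left out, that of DDIT3 0.047 with the block and replicate 3 left out, and that of CHAC1 -0.28 with the block and replicate 2 left out. With single arrays left out, the log2 difference ranged over -0.38 to 0.53 for ATF3, -0.38 to 0.011 for DDIT3, -0.11 to 0.029 for CEBPB, -0.036 to 0.14 for PHGDH and -0.25 to 0.33 for CHAC1. It kept its sign but moved by over 1.5 times for ATF4 (-0.19 to -0.043), PSAT1 (-0.52 to -0.22) and SESN2 (-0.72 to -0.14). The blocked fit changed no other call of a member. Dim probe sets such as that of CHAC1 are limited by signal over background.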
